A study of Homo sapiens with 12 samples.

Results

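The genes described here encode core parts of the machinery that copies DNA at the replication fork. They are 10 genes, PCNA, GINS2, PRIM1, POLA1, POLE2, POLD3, RFC2, RFC4, FEN1 and LIG1, taken by name from the design of the array, where 12 gene probes carry one of these names among 41000 gene probes of 29123 names. POLD3 and FEN1 have 2 probes each and the other 8 genes have 1. RNA came from HuH-7, an established line of human liver cancer cells that expresses a mutant form of p53, kept for 24 h with DMSO, the solvent, with 28 µM SLMP53-2 or with 42 µM SLMP53-2, a small molecule studied as a reactivator of mutant p53. The doses were 2 and 3 times the IC50, and the same line, carrying the same mutant p53, was used in all 3 groups. The higher dose is 42 µM in the sample titles and in the study's methods and 48 µM in the treatment label of the same arrays, and 42 µM is used here. Each group holds 4 arrays, described as biological replicates, so 12 arrays of 1 colour were read, on 5 slides. All values are normalized log2 values, on which a difference of 1 is a 2-fold difference in brightness, and errors are the SD over n = 4 arrays unless stated. Levels of different probes are not set against each other, because brightness also depends on the probe.

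DNA replication is carried out by a machine of several complexes that meet at the fork. The CMG helicase, made of CDC45, the MCM2 to MCM7 ring and the GINS complex, unwinds the double strand. Polymerase alpha-primase (POLA1 is its polymerase and PRIM1 its primase subunit) starts each new strand, the RFC complex then opens the ring of PCNA and closes it around the primed DNA, and PCNA holds polymerase delta and polymerase epsilon on their template. On the lagging strand FEN1 cuts off the displaced primer flap and LIG1 seals the nick that remains. Transcripts of many of these genes are known to be most abundant in dividing cells around the start of S phase, and PCNA has long been used as a marker of proliferating cells.

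The PCNA probe is read from 10 separate spots on each array. Its 60 bases, shown because the PCNA result rests on this stretch of the transcript, come from the scanner output.
PCNA probe: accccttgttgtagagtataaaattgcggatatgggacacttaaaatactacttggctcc
It lies on the minus strand at chr20:5095957-5096102 in hg19, a span of 146 bases for a probe of 60, so that it crosses an exon junction. The probes of PRIM1, RFC4 and the dimmer POLD3 probe also span more genome than their own length, while the other 8 lie within continuous stretches of their genes.

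Of the 33467 probes that passed the filter on dim signal, all 12 member probes are part, 11 of them well above background on all 12 arrays. The exception was the second POLD3 probe, described below. Over the arrays 65.0% to 85.0% of the gene spots were well above background, with both ends of this range at 28 µM. None of the member spots was saturated, and 15 spot readings of PRIM1 had an outlier flag and were left out. All 8 hepatocyte markers looked at (AFP, ALB, APOA1, APOA2, APOB, TTR, SERPINA1 and FGB) were detected on every array, with mean levels of 9.04 to 16.1 on the DMSO arrays, and none was called at 42 µM. Of 8 markers of leukocytes, fibroblasts and endothelium 3 (CD3E, CD14 and COL3A1) were detected on all arrays and PTPRC on none. The others were detected on 11 (DCN and PECAM1), 10 (CDH5) and 7 (COL1A1) of the 12 arrays. Mean DMSO levels of these 8 markers ran from 5.84 to 7.98. None of those tested was called at 42 µM, and their summed level was 9.62 to 9.89 on the DMSO arrays, 9.35 to 9.79 at 28 µM and 9.52 to 9.79 at 42 µM.

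At 42 µM, transcripts of the sliding clamp PCNA, the helicase part GINS2, the catalytic subunit POLA1 and the polymerase delta subunit POLD3 fell against DMSO, and all 10 genes had a mean below that of the DMSO arrays, as 52.5% of all probes did. PCNA and GINS2 had the largest differences at this dose, to 47.5% and 48.4% of the DMSO level. A probe was called when limma, fitted to all 12 arrays, gave a Benjamini-Hochberg adjusted p below 0.05 over all probes together with a log2 difference of at least 0.6. By that rule 4 of the 10 genes were lower and 0 were higher, where 1.23% of all probes tested (1.58% of the gene names) were called lower and 1.41% of the probes higher. The median log2 difference was −0.56 over the 10 genes, each by its brightest probe, and −0.01 over all probes. As RNA of whole cultures was measured, fewer cells with a transcript and less of it per cell cannot be told apart. Leaving out DMSO replicate 1, DMSO replicate 2 or 42 µM replicate 2 ended all 4 calls. With DMSO replicate 4 or 42 µM replicate 1 left out 1 of the 4 was called, and with DMSO replicate 3 left out 2 were. Calls of the other fork genes, given below, also fell in these fits, so the losses were not confined to the members. The share of all probes called in each of these fits is not given here. How far the losses reached over the whole array can therefore not be read from these counts. Over all 12 arrays left out in turn the differences ran from −1.23 to −0.85 for PCNA, from −1.23 to −0.88 for GINS2, from −0.65 to −0.57 for POLA1 and from −0.82 to −0.68 for POLD3, with a largest adjusted p from limma of 0.0744 (POLD3) to 0.151 (POLA1).

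**Figure D1:**
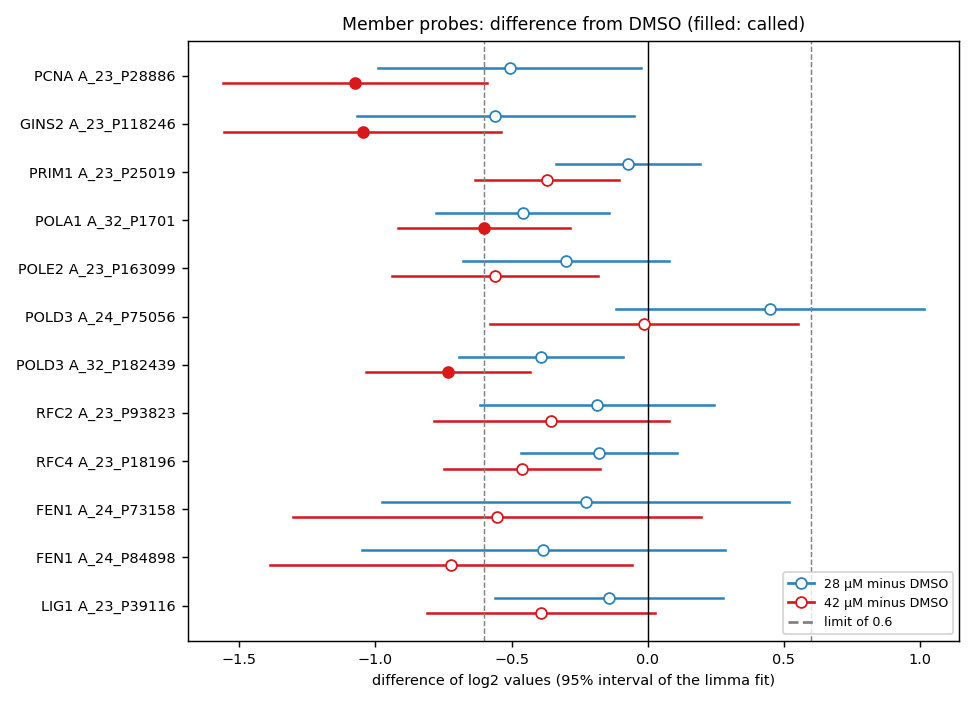
Log2 difference from DMSO of each member probe at 28 µM (blue) and 42 µM (red), with the 95% interval of the limma fit as a bar, filled symbols for called probes and dashed lines at a difference of 0.6. At 42 µM the 11 probes detected on every array lie between −1.08 and −0.35, and 4 are called.

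PCNA, the ring that tethers the polymerases to DNA, read 13.20, 13.44, 13.07 and 13.15 on the 4 DMSO arrays. At 28 µM it read 12.74, 12.47, 12.51 and 13.10, and at 42 µM 12.002, 11.46, 12.48 and 12.61. Every 42 µM array was below every DMSO array, and at 28 µM replicate 4 alone reached the DMSO range. The difference at 42 µM was −1.08 ± 0.22 (SE of the fit), with an adjusted p of 0.0239 from limma. Its 10 spots had an SD of 0.177 to 0.789 within an array, with a median of 0.222. The array with the widest spread was 42 µM replicate 2, the lowest for PCNA, where 2 spots at 9.94 and 10.15 stood below the other 8, which ran from 11.39 to 12.12. With the median over spots in place of the mean, an alternative chosen after seeing the data, the difference was −1.01 and the adjusted p 0.0225 (limma).

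GINS2, a subunit of the GINS complex within the CMG helicase, read 10.93, 10.96, 10.97 and 11.12 on the DMSO arrays. It read 10.29, 10.16, 10.28 and 11.01 at 28 µM and 9.55, 9.46, 10.30 and 10.49 at 42 µM. The DMSO arrays lay close together (SD 0.0886), and the 42 µM arrays fell into a lower and a higher pair, all below DMSO. The mean at 42 µM differed by −1.05 (SE 0.24), with an adjusted p of 0.0321 in the limma fit.

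POLA1, the subunit that extends the RNA primer with DNA, read 10.38, 10.60, 10.47 and 10.51 with DMSO. The 28 µM arrays read 10.21, 9.62, 9.95 and 10.34 and the 42 µM arrays 10.04, 9.79, 9.94 and 9.78. All 8 treated arrays were below all 4 DMSO arrays, which no other member probe showed. The difference at 42 µM, −0.60 ± 0.15 (SE), lay just past the limit of 0.6, with an adjusted p of 0.0437 from limma, and the call was lost in 16 of 25 alternatives. PRIM1, the primase subunit that makes the primer, had the smallest SD on the DMSO arrays among the 11 detected probes. Its values were 10.74, 10.80, 10.88 and 10.84 with DMSO, 10.697, 10.58, 10.61 and 11.09 at 28 µM and 10.40, 10.33, 10.54 and 10.52 at 42 µM. The 42 µM arrays lay below both other groups with no overlap, yet the difference from DMSO was −0.37 ± 0.12 (SE) and was not called (adjusted p = 0.134, limma).

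POLD3, an accessory subunit of polymerase delta, is read by 2 probes that differed in brightness and in pattern. The brighter one, at chr11:74353632-74353691 (hg19), read 10.73, 10.698, 10.57 and 10.31 with DMSO. It read 10.13, 9.95, 10.16 and 10.51 at 28 µM and 9.86, 9.69, 10.01 and 9.82 at 42 µM. Here the 42 µM arrays were all below DMSO, by −0.73 ± 0.14 (SE) in the mean, with the smallest adjusted p among the members, 0.0172 from limma. The other probe, at chr11:74329798-74331069 (hg19), was well above background on 2 of the 12 arrays, both at 28 µM, and on none of the DMSO or 42 µM arrays. It read 7.38, 6.03, 5.92 and 5.85 at 28 µM, 5.79 to 5.87 with DMSO and 5.70 to 6.03 at 42 µM. Its difference at 28 µM did not pass the test (adjusted p = 0.558, limma) and dropped from 0.45 to 0.09 without 28 µM replicate 1, so no fold is given.

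POLE2, a subunit of polymerase epsilon, had a mean of 8.67 ± 0.20 with DMSO, 8.37 ± 0.36 at 28 µM and 8.11 ± 0.19 at 42 µM. The 42 µM arrays, from 7.93 to 8.36, were below the DMSO arrays, from 8.47 to 8.93. The difference of −0.56 ± 0.18 (SE) was not called (adjusted p = 0.112, limma).

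RFC2 and RFC4, small subunits of the clamp loader, were not called either. RFC4 read 12.16, 12.30, 12.08 and 12.09 with DMSO, 11.99, 11.84, 11.80 and 12.28 at 28 µM and 11.82, 11.45, 11.66 and 11.86 at 42 µM. Its 42 µM arrays did not overlap with DMSO, and the difference was −0.46 ± 0.13 (SE) with an adjusted p of 0.0834 from limma. RFC2 read 9.22, 9.13, 9.18 and 9.57 with DMSO and 8.59, 8.58, 9.09 and 9.42 at 42 µM. These groups overlapped, with replicates 3 and 4 near or within the DMSO range, and the difference was −0.35 ± 0.20 (SE, adjusted p = 0.453, limma).

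FEN1 and LIG1 finish the lagging strand, and FEN1 varied most between arrays of a group among the genes of the 11 detected probes. The FEN1 probe of higher mean read 10.78, 10.58, 11.46 and 11.17 with DMSO, 10.34, 10.15, 10.95 and 11.64 at 28 µM and 9.62, 10.31, 11.03 and 10.82 at 42 µM. The second FEN1 probe, further along the same gene, read 10.01, 10.40, 10.54 and 10.90, then 10.01, 9.40, 10.08 and 10.82, and 9.17, 9.41, 9.99 and 10.38 in the same order. Both probes overlapped between DMSO and 42 µM, with differences of −0.55 ± 0.35 and −0.72 ± 0.31 (SE) and adjusted p of 0.515 and 0.271 from limma. Without 42 µM replicate 1 the first of these was −0.28. LIG1 had a mean of 11.56 ± 0.13 with DMSO, 11.42 ± 0.28 at 28 µM and 11.17 ± 0.41 at 42 µM. Its 42 µM values ran from 10.71 to 11.67, overlapping the DMSO range of 11.42 to 11.72, and its difference of −0.39 ± 0.19 (SE) had an adjusted p of 0.365 from limma and was −0.24 without 42 µM replicate 1.

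**Figure D2:**
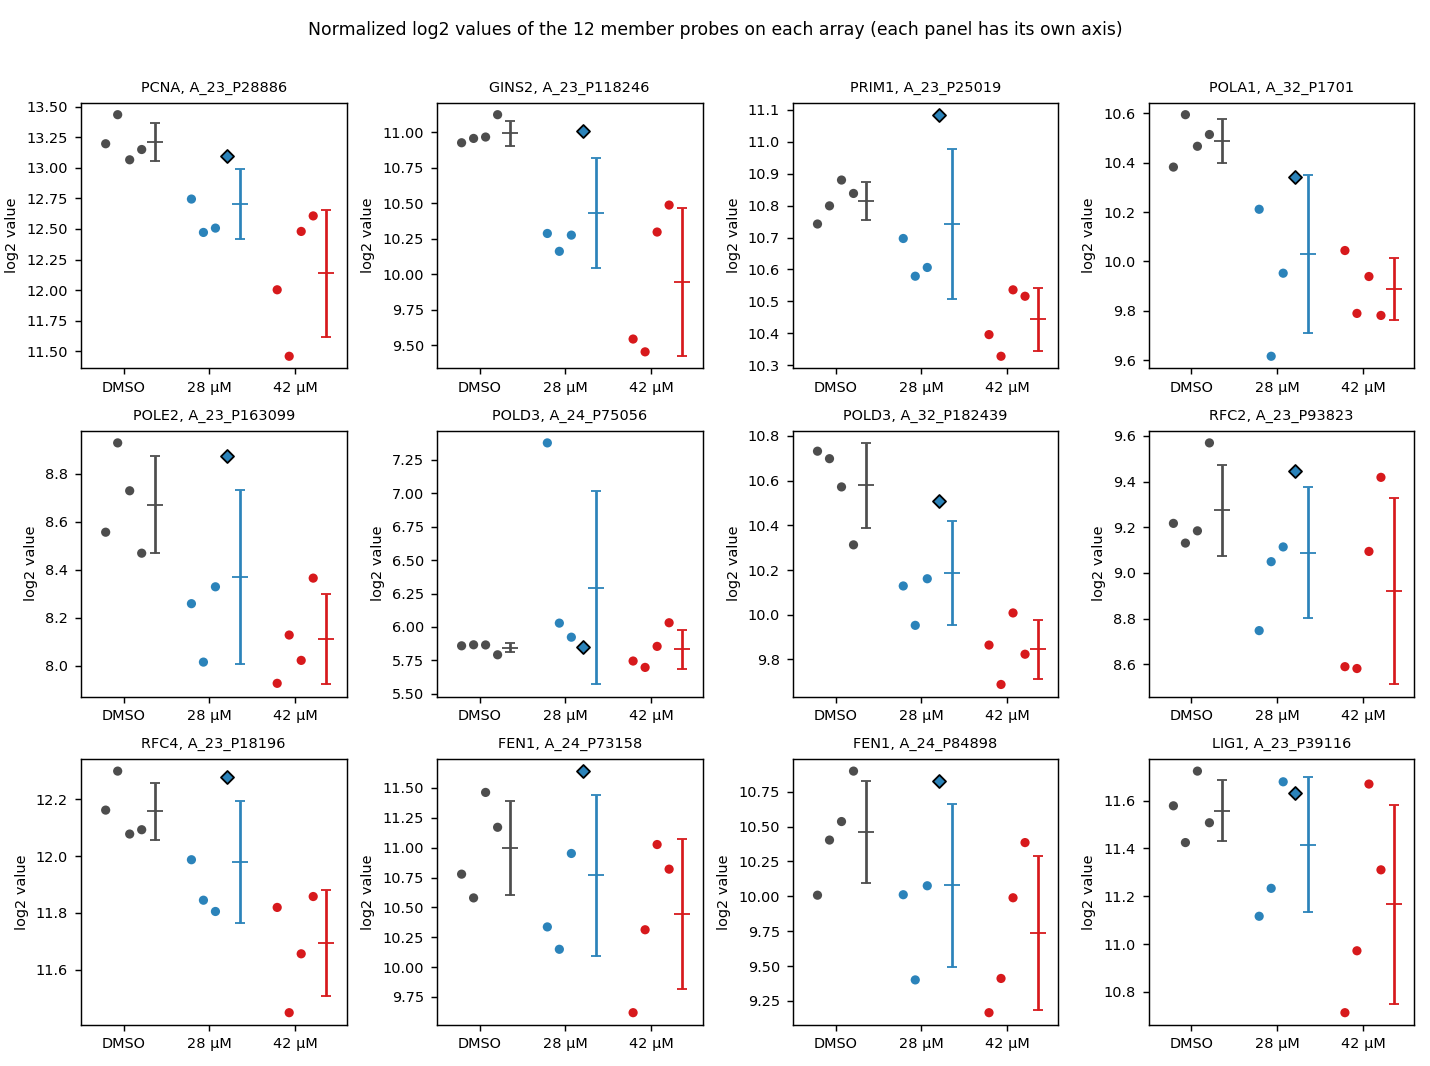
Normalized log2 values of the 12 member probes in each group, with a point per array (replicates 1 to 4 from left to right, 28 µM replicate 4 as a diamond) and the mean ± SD of the 4 arrays beside them. Each panel has its own axis that does not start at 0, and in 7 of the 10 genes the 42 µM arrays of the brighter probe all lie below the DMSO arrays.

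In 7 of the 10 genes, all but RFC2, FEN1 and LIG1, the 42 µM arrays did not overlap with the DMSO arrays and were lower, where 6.48% of all probes were. At an unadjusted p below 0.05, 8 of the 12 probes differed from DMSO at 42 µM, all lower, against 7.14% of all probes on that side. Over the 11 detected probes the median SD between arrays of a group was 0.158 with DMSO, 0.288 at 28 µM and 0.409 at 42 µM. The lowest value of the 12 arrays fell on 42 µM replicate 2 for 6 of these probes and on 42 µM replicate 1 for 4.

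At 28 µM none of the 10 genes was called against DMSO by limma, and neither was any probe on the array (0% of probes in either direction). This departs from the study, which reports differentially expressed genes at both doses with the same limits on adjusted p and log2 difference. With the authors' normalized values 0 probes were called at 28 µM as well, and the reason for the departure was not tested. All 10 genes had a mean below DMSO, where 52.5% of all probes did, and their median difference was −0.27 against −0.01 for all probes. At an unadjusted p below 0.05, 4 genes were lower, where 5.58% of all probes were: POLA1 by −0.46 ± 0.15 (SE), POLD3 by −0.39 ± 0.14, GINS2 by −0.56 ± 0.24 and PCNA by −0.51 ± 0.22. Their adjusted p ran from 0.271 for POLA1 to 0.430 for PCNA (limma). POLA1 was the only member whose 28 µM arrays were all below DMSO, where 2.68% of all probes were.

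The 28 µM arrays were not alike in these genes. The members' median stood at −0.45, −0.64 and −0.35 against the mean of the DMSO arrays on replicates 1, 2 and 3, and at 0.10 on replicate 4. Replicate 4 was the highest of the 28 µM arrays for 10 of the 12 probes and lay at or above the lowest DMSO array for 11. The latter count includes the dimmer POLD3 probe, at 5.85 against 5.79 on a DMSO array where it was not above background. Shares over all probes are not given here for these counts, so they do not show whether replicate 4 departs in the members alone. Replicates 1 to 3 were all below the lowest DMSO array for 8 of the 12 probes, and for 7.44% of all probes. Without replicate 4 the median difference at 28 µM was −0.48 and still 0 member probes were called by limma, where 0.84% of all probes were called lower. At an unadjusted p below 0.05, 7 of the 12 probes were then lower, where 8.13% of all probes were lower and 7.55% higher in that fit. The dimmer POLD3 probe was higher. It passed the filter only through the 28 µM group and its high value is that of replicate 1, so it is not counted as a result. The smallest adjusted p of a member was then 0.0648 (limma), for POLA1, with a difference of −0.56 ± 0.14 (SE). The median of the other fork genes moved in the same way, from −0.41, −0.31 and −0.31 on replicates 1 to 3 to 0.11 on replicate 4. The share of spots well above background was 83.4% on replicate 4 and 65.0% to 85.0% on the other 3, and its part in the result was not tested.

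**Figure D3:**
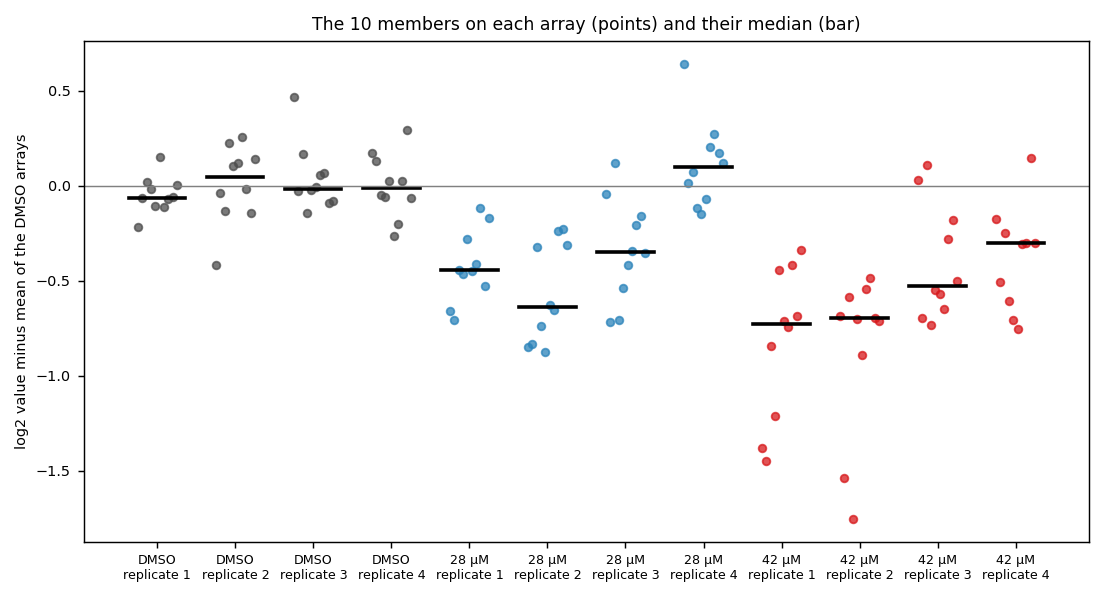
Log2 value minus the mean of the 4 DMSO arrays for each of the 10 members (points, brightest probe) on each of the 12 arrays, with their median as a bar. The bars of 28 µM replicates 1 to 3 lie at −0.45, −0.64 and −0.35 and that of replicate 4 at 0.10, while the 42 µM bars lie between −0.73 and −0.30.

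On the 42 µM arrays the members' medians were −0.73, −0.70, −0.53 and −0.30 for replicates 1 to 4, all below the 4 DMSO medians, which ran from −0.06 to 0.04. Each slide held some of the groups, so differences can also be read within a slide, from 1 array per group. The median of the members at 42 µM minus DMSO was −0.67, −0.71 and −0.65 on the 3 slides that held both, with 10, 10 and 8 of the 10 genes below 0. At 28 µM minus DMSO it was −0.29 and −0.35 on 2 slides and 0.09 on the slide that held 28 µM replicate 4. When the fit blocked on slides, 0 members were called at 42 µM by limma, where 0.00299% of all probes were called lower, and 7 of the 12 probes were lower at an unadjusted p below 0.05, where 6.91% of all probes were in that fit. The difference of PCNA was then −1.14 with an adjusted p of 0.0693 (limma).

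Between the doses no member differed after adjustment. In limma 0 probes were called, of the members and of the array (0%), and every member had an adjusted p of 0.9995. All 10 genes, each by its brightest probe, had a lower mean at 42 µM than at 28 µM, where 46.2% of all probes did. Their median was −0.29 against 0.01. The dimmer POLD3 probe was lower as well, but it passed the filter only through the 28 µM group, so it is not counted here. At an unadjusted p below 0.05, 3 probes were lower (1.39% of all probes were), those of PCNA (−0.57 ± 0.22, SE), PRIM1 (−0.30 ± 0.12) and the brighter POLD3 probe (−0.34 ± 0.14). The 95% interval of the difference ran from −1.05 to −0.09 for PCNA and from −0.996 to 0.02 for GINS2. PRIM1 was the only member whose groups did not overlap between the doses, where 0.849% of all probes were lower without overlap. Within slides the median difference was −0.32 and −0.82 on 2 slides and 0.15 on the third. The 3 comparisons share arrays in pairs, so they are not independent of each other.

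Across the 12 arrays the values of the 10 genes were positively correlated. The correlation between 2 members had a median of 0.77 over the 45 pairs and ran from 0.38, for POLA1 and RFC2, to 0.95. With each group's mean taken away the median was 0.61 and the range 0.0019 (again POLA1 and RFC2) to 0.89. These are descriptions over arrays that share treatment, slide and normalization. Of 33389 probes of other genes, those most like the mean pattern of the members included MCM6 (r = 0.991 over the 12 arrays), PRC1 (0.988), ASPM (0.987) and DDIAS (0.985). In all, 296 probes had a correlation above 0.9 and 287 below −0.9. MCM6 is a part of the helicase ring. PRC1 and ASPM act at the mitotic spindle.

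The partners of these genes at the fork were read from a list of 42 other fork genes, all of which were tested. At 42 µM, 11 of them fell and 0 rose, 26.2% against 1.58% of all gene names called lower, and 31 were not called. Their median difference was −0.56, and 23 had no overlap with DMSO and were lower, where 6.48% of all probes were. The largest decreases among those called were PCLAF (−1.27 ± 0.24, SE, adjusted p = 0.0166), a protein that binds PCNA, and TOP2A (−1.02 ± 0.25, adjusted p = 0.0452), the topoisomerase that untangles copied DNA. DSCC1 (−0.97 ± 0.21, adjusted p = 0.0253), a part of an alternative clamp loader, and CDC45 (−0.97 ± 0.24, adjusted p = 0.0449), the helicase cofactor, followed in the limma fit. MCM10, an initiation factor, stood at −0.94 ± 0.24 (adjusted p = 0.0494, limma). RFC3 was called by its dimmer probe alone (−0.78, against −0.42 for the brighter one). None of the 42 was called at 28 µM by limma (0% of all probes were). Of the 42, 8 were lower at an unadjusted p below 0.05, where 5.58% of all probes were, and 1 was higher. The calls at 42 µM dropped to 0 when DMSO replicate 2 or 42 µM replicate 2 was left out and when slides were blocked. They were 1 without DMSO replicate 1, 2 without DMSO replicate 3, DMSO replicate 4 or 42 µM replicate 1, 5 without 28 µM replicate 3 and 7 without 42 µM replicate 3. For the fits with an array left out, the share of all probes called is not given here.

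**Figure D4:**
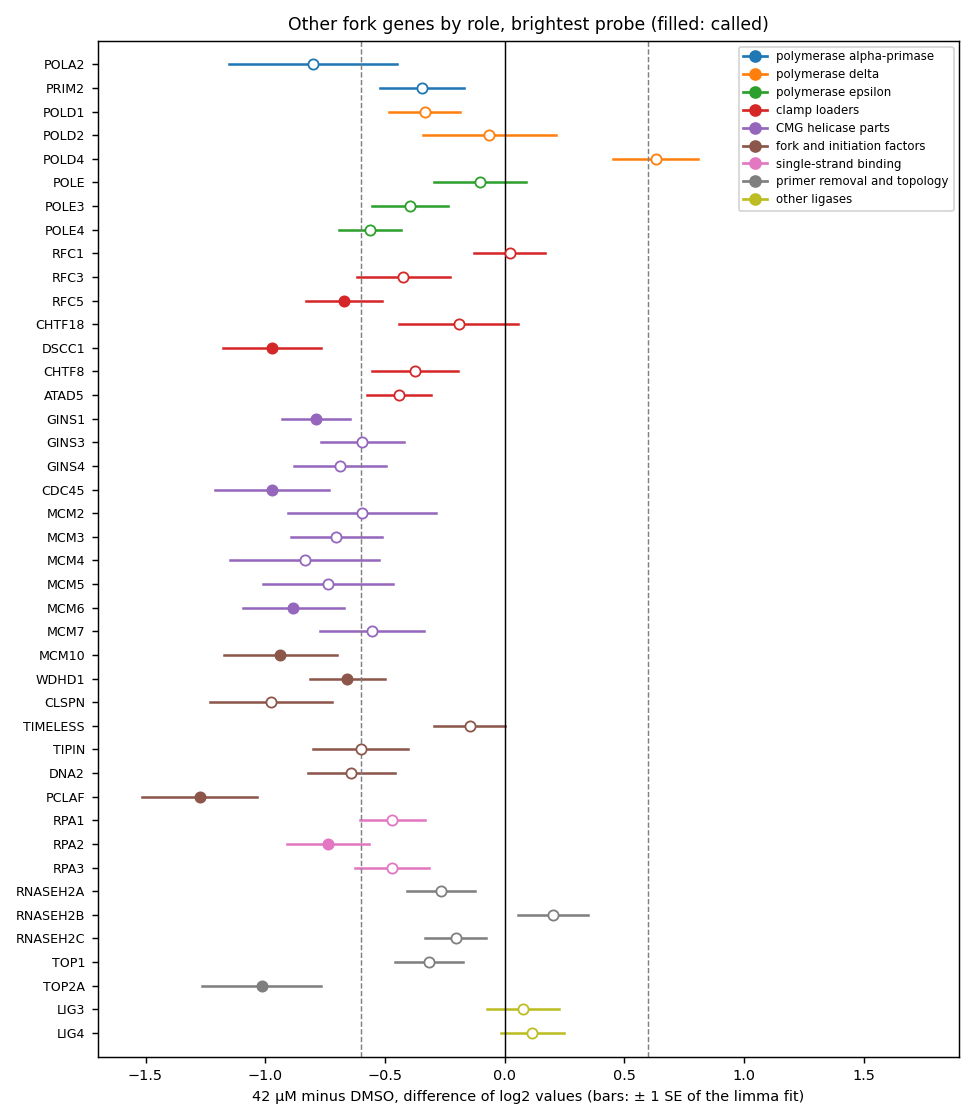
Log2 difference of 42 µM minus DMSO for the 42 other fork genes, by the brightest probe of each, coloured by role, with ± 1 SE of the limma fit as bars and filled symbols for called probes. The helicase parts (purple) lie between −0.97 and −0.55, while the polymerase delta subunits (orange) spread from −0.33 to 0.63.

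Within the complexes of the members the subunits differed in size of change, though differences between subunits were not tested. In GINS all 4 subunits were lower in mean at 42 µM: GINS2 and GINS1 (−0.79 ± 0.14, adjusted p = 0.0157, limma) were called, and GINS3 (−0.60) and GINS4 (−0.69) were not. All 10 helicase parts beside GINS2 had a mean below DMSO, and GINS1, CDC45 and MCM6 were called. In polymerase alpha-primase, POLA2 had −0.80 ± 0.35 (SE, adjusted p = 0.287) and PRIM2 −0.34 ± 0.17 (adjusted p = 0.382, limma). In polymerase delta POLD3 was called, while the catalytic subunit POLD1 had −0.33, POLD2 −0.06 and the small subunit POLD4 0.63 ± 0.18 (SE), which was not called (adjusted p = 0.0767, limma). In polymerase epsilon the catalytic subunit POLE had −0.10 and POLE3 −0.40, neither called. POLE4 passed the p limit (adjusted p = 0.0354, limma) with −0.56, short of the size limit. Of the other clamp loader subunits RFC5 fell (−0.67 ± 0.16, SE, adjusted p = 0.0394, limma), and RFC1, the large subunit, had 0.02. The other DNA ligases, which act mainly in repair, had 0.08 (LIG3) and 0.12 (LIG4).

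The promoters of the members were searched for letters that are known in promoters of replication genes. RefSeq promoters of GRCh38.p14, from 250 bases before to 50 after the start, were searched for 9 of the 10 genes, all but POLD3, with 2 promoters for PCNA. Letters of E2F type (TTTGGCGC, TTTCGCGC or GGCGGGAA, on either strand) were found in 8 of the 9, all but FEN1, and in 4.24% of all 35116 promoters. GGCGGGAA was in 6 of the 9 (3.16% of all), TTTGGCGC in 2 (0.652%) and TTTCGCGC in 0 (0.515%). The CHR letters TTTGAA were in 0 of the 9 (15.2% of all), CCAAT in 4 (34.6%) and the GC box GGGCGG in 7 (45%). GGCGGGAA overlaps the GC box where a G stands before it, as in PCNA, RFC4 and LIG1, and in PRIM1 its reverse overlaps CCAAT. Of the other fork genes 9 of 34 with a promoter had letters of E2F type. The 6 members whose match lies wholly before the start are shown, since the called genes PCNA, GINS2 and POLA1 are among them, with the matched letters in capitals and each strand written as the gene runs.
PCNA, chr20:5126635-5126722, minus strand: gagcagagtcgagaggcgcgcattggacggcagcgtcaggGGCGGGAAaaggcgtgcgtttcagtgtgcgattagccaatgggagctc
GINS2, chr16:85688955-85689026, minus strand: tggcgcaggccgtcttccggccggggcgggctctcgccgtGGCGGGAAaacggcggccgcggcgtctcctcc
PRIM1, chr12:56752324-56752387, minus strand: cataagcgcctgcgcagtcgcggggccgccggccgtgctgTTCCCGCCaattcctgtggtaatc
POLA1, chrX:24693741-24693828, plus strand: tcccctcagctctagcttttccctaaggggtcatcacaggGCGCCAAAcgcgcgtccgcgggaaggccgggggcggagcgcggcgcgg
RFC4, chr3:186806483-186806532, minus strand: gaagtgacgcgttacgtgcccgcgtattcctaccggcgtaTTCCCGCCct
LIG1, chr19:48170410-48170497, minus strand: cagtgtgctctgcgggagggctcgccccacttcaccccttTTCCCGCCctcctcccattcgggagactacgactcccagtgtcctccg
The matches shown end 53 bases before the start in PCNA, 25 in GINS2, 17 in PRIM1, 130 in POLA1, 3 in RFC4 and 106 in LIG1. RFC4 also holds GGCGGGAA after the start, at positions 22 to 29 counted from it, which is not shown. In POLE2 and RFC2 the match runs across the start. Of the 8 genes with a match 3 were called at 42 µM, and the uncalled genes PRIM1, RFC4 and LIG1 carry one as well. A match in letters is no measurement of binding, and no binding was measured on these arrays.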

How the data were processed

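Each array's Feature Extraction output (version 10.7.3.1 per the file headers), with mean and local background intensities per spot, was deposited, together with a table of log2 values that the authors had corrected for background by the method of Edwards and normalized by quantiles. Probe positions in the scanner files refer to hg19. Here, the intensities were processed afresh in the same way with limma 3.58.1 (R 4.3.3, and 1.17.8 of the package data.table), without control spots and without spots flagged as outliers, and log2 values were averaged over the spots of a probe. The filter asked that, in any of the groups, 2 or more of the 4 arrays show the probe well above background. A linear model of the 3 groups was then fitted with limma (lmFit, eBayes) over 12 arrays, two-sided, with Benjamini-Hochberg adjustment across 33467 probes. Other genes were named through RefSeq where the accession matched (28078 of 41000 probes), members by their name on the array. For gene counts, a gene was called when any of its probes was. Medians and overlaps use the probe of highest mean.

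The procedure was tested on simulated data with independent noise, where 200 probes were changed by a log2 difference of 1.5. Of these, 92.5% were recovered at 28 µM and 91% at 42 µM, with 5 and 10 false calls among the unchanged probes. The members' differences were smaller, and recovery of changes of their size was not tested. The members and lists were chosen with earlier results of these data known. Named are the members, their partners in the same complex, up to 5 called fork genes of largest change in each direction, and the 5 genes whose probe correlates best with the members' mean pattern, of which 1 is not reported here. Alternatives were other corrections and scalings (normexp, offset 50; Feature Extraction's processed signal or Edwards values, each brought to a common 75th percentile), other filters, the authors' table, slide or replicate number as blocks, only the groups compared, other limits, and leaving out each array in turn. The number of arrays limits the precision. A search of protein sequences was planned and not run, as no protein sequences were used here. Plots and promoter counts used Python 3.11.15, pandas 2.3.3, numpy 2.4.6 and matplotlib 3.10.9.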

Additional observations from a re-analysis of the deposited data

Results flagged for a closer look

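Of 36 groups of 4 arrays (12 member probes in 3 groups), 3 held an array far from the other 3, where chance flags about 1 in 20. GINS2 read 11.01 on 28 µM replicate 4, the highest of its group, with the next at 10.29. The dimmer POLD3 probe read 7.38 on 28 µM replicate 1, with the next at 6.03. The same probe read 5.79 on DMSO replicate 4, the lowest of its group, with the next at 5.86, where none of the 4 DMSO arrays was well above background.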

How the results depend on the processing

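No result turned its direction past the spread between replicates in any of 25 alternatives per comparison, and the members' median stayed below 0 in all of them, from −0.71 to −0.50 at 42 µM, from −0.48 to −0.18 at 28 µM and from −0.37 to −0.18 between the doses. Of the medians, that at 28 µM moved beyond the replicate spread once, to −0.48 without 28 µM replicate 4. With all arrays kept, the 4 member calls at 42 µM became 0 with the slide as a block. With a log2 limit of 1 they became 2 (PCNA and GINS2). POLA1 alone lost its call with normexp, both scalings to the 75th percentile, the slide as a random block and the authors' table (−0.59). The 11 calls of other fork genes became 6 with the processed signal at the 75th percentile. They became 0 with the slide as a block and 2 with a log2 limit of 1. The share of all probes called lower at 42 µM is not given here for that limit or for fits with an array left out. Leaving out an array gave 0 to 4 member calls and 0 to 15 calls of other fork genes at 42 µM. At 28 µM it gave 0 member calls and 0 to 3 of other fork genes, the 3 without 28 µM replicate 4 being PCLAF, MCM10 and RFC3, named after their values were seen, the last 2 by their dimmer probes. The members' median ran from −0.48 to −0.18 at 28 µM when an array was left out. POLA1 lost its call in 16 alternatives, GINS2 in 7, PCNA in 6 and the brighter POLD3 probe in 5. Over all probes 46.7% of the calls at 42 µM were lower, and 60.7% with the Edwards values at the 75th percentile. Under that scaling the members' median minus the median of all probes was −0.60. Same-numbered arrays correlated in their deviations from −0.46 to 0.41 for 42 µM and DMSO, from −0.05 to 0.24 for 28 µM and DMSO and from −0.07 to 0.62 for both doses, not above 0.1 in every pair, and the labels name nothing that same numbers share, so the arrays were not paired. A replicate block gave 5 member calls, with the second FEN1 probe added (adjusted p = 0.0334, limma), and 16 of other fork genes at 42 µM, where 1.76% of all probes were called lower in place of 1.23%. The number of arrays, and for the dimmer POLD3 probe the signal over background, limit these results.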
